A study of Mus musculus with 12 samples.

Results

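A set of 10 genes of the core circadian clock were followed in mouse liver after a short treatment with Wy-14643, an agonist of the nuclear receptor PPARα. The genes were Arntl (also called Bmal1), Clock, Npas2, Per1, Per2, Cry1, Nr1d1, Nr1d2, Dbp and Tef. They were chosen by name, through probes whose RefSeq accession maps to 1 of these 10 symbols. No measured value entered that rule, but the choice was made with earlier results of these data known. All 10 were read among 14633 genes with a symbol, and among 25270 genes or unnamed probes in all.

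The clock is a feedback loop of transcription factors. CLOCK or its relative NPAS2 pairs with ARNTL and switches on genes that carry E-boxes, among them the Per and Cry genes, whose proteins then repress that pair. The nuclear receptors REV-ERBα and REV-ERBβ (Nr1d1 and Nr1d2) form a second loop by repressing Arntl, and the PAR bZIP factors DBP and TEF carry the rhythm to D-box genes of liver metabolism. In liver most of these RNAs rise and fall over the day, so their level depends on the hour at which the tissue is taken.

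RNA of whole liver from C57BL/6 mice was hybridised to 12 two-colour Agilent arrays. The sample was read in Cy5 and a common liver pool in Cy3, so each array gives log2 ratios of sample to pool. All mice carried the floxed Myc alleles called MycF/F, in which the gene of the transcription factor MYC can be cut out by Cre recombinase. One genotype had these alleles alone, which the labels class as wild type, and the other, MycF/F,ERT2-Cre, also had the ERT2-Cre transgene and is classed as knockout (called ERT2-Cre livers below). ERT2-Cre is a recombinase fused to a mutated estrogen receptor domain, which is commonly switched on with tamoxifen. Mice ate a control diet or a diet with 0.1% Wy-14643 for 2 days. That makes 4 groups. Control diet was represented by 1 MycF/F array, of RNA labelled as pooled, and by 4 MycF/F,ERT2-Cre arrays, and Wy-14643 by 3 and 4 arrays of the same genotypes. No label gives the promoter of the transgene, tamoxifen, sex, age, animal identity or the hour of day at which livers were collected. They do not say that samples of a group are separate animals, so p-values measure only the spread between these samples, which may be technical.

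The arrays lay on 3 slides, each scanned on its own. The Cy5 signal stood 2.64 to 4.82 times above its background by the median, no Cy5 spot was saturated, and 0.904% to 8.35% of spots were marked as outliers, with the 4 arrays of slide 1 at 5.47% or more. Of 3 probes for Myc, the targeted gene, 2 were lower in ERT2-Cre than in MycF/F livers on Wy-14643, at log2 differences of -1.85 and -1.83 (adjusted p = 0.00386 and 0.00613), beside 0.104% of all kept probes called in that comparison. The brightest Myc probe differed by -0.57 (adjusted p = 0.295). On control diet the other 2 probes were at -0.98 and -1.04 (unadjusted p = 0.00194 and 0.0028) and the brightest at -0.19, each with an adjusted p of 1 against a single MycF/F array. The PPARα target genes Cyp4a14, Cyp4a10, Ehhadh and Pex11a rose on Wy-14643 in both genotypes, by log2 differences from 2.64 for Pex11a to 4.65 for Cyp4a14 in ERT2-Cre livers. Markers of cell types moved with the drug as well. In ERT2-Cre livers, where 7.33% of all genes were called lower and 8.88% higher, 3 of 4 measured hepatocyte markers fell, with array means of the list from 0.885 to 1.392 on control diet and from -0.403 to 0.297 on Wy-14643. Kupffer cell markers fell for 4 of 7 genes, stellate cell for 3 of 6, endothelial for 1 of 6, lymphocyte for 2 of 5 and erythroid for 2 of 2, and of 5 cholangiocyte markers 1 rose and 1 fell. Their part in the results on the clock genes was not tested. In bulk RNA, fewer cells of a type and less RNA per cell cannot be told apart.

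Clock rose on Wy-14643, and Dbp and Tef fell, in ERT2-Cre livers, where 16.2% of all genes were called. The Dbp and Tef calls lay near the threshold and were kept in only 5 and 7 of 21 alternative settings. The other 7 clock genes did not pass the test in ERT2-Cre livers, among them Arntl, the partner of CLOCK, with a log2 difference near 0. In MycF/F livers Clock again rose, by a difference of the same size, with 1 control array. That call was kept in only 6 of 21 alternative settings. No clock gene differed between genotypes on either diet, and none had a drug response that was called different by genotype, at an adjusted p under 0.05.

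**Figure D1:**
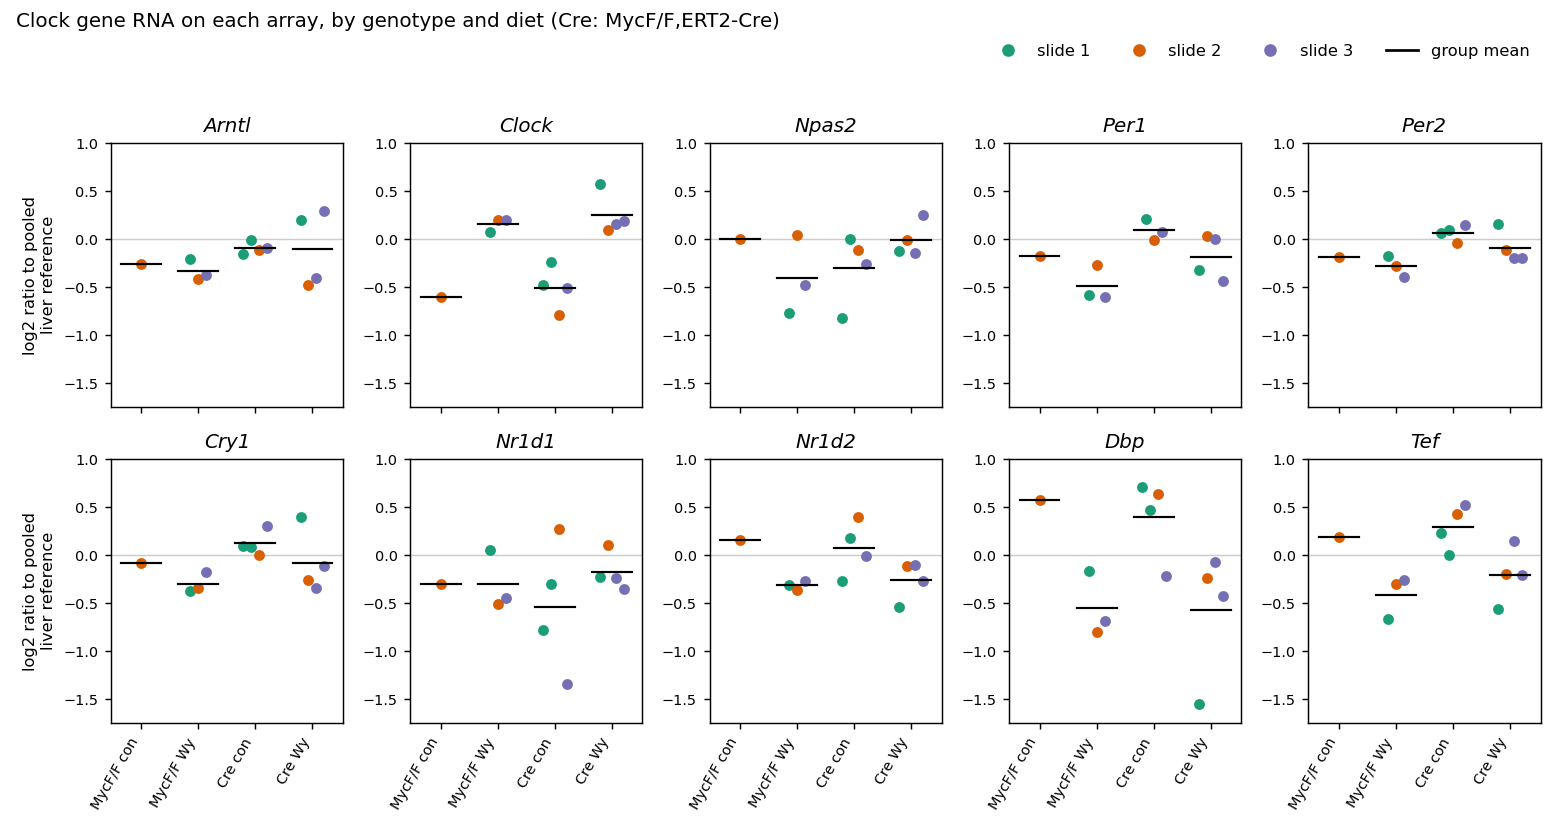
Each panel plots the log2 ratio to the pooled liver reference of 1 clock gene on each array, by group, with points coloured by slide and bars at group means. Clock lies below 0 on all 5 control-diet arrays and above 0 on all 7 Wy-14643 arrays, whereas every other clock gene overlaps between the diets.

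The drug comparison in ERT2-Cre livers set 4 arrays against 4. Of the 10 clock genes 3 were called at an adjusted p under 0.05 (limma, Benjamini-Hochberg over all genes), 1 higher and 2 lower. Over all genes tested 16.2% were called, 8.88% higher and 7.33% lower. The median log2 difference was -0.18 over the clock genes and 0.0293 over all genes. A difference below 0 was found for 7 of the 10 and above 0 for 3. Without the arrays of slide 1 the count was again 3, with Cry1 (-0.39, adjusted p = 0.0463) in place of Dbp.

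Clock encodes the bHLH-PAS activator that gives the loop its name. On control diet its log2 ratios were -0.48, -0.24, -0.79 and -0.51 on the 4 ERT2-Cre arrays and -0.61 on the MycF/F array. On Wy-14643 they were 0.57, 0.093, 0.15 and 0.19 on the ERT2-Cre arrays and 0.075, 0.20 and 0.20 on the MycF/F arrays. Every Wy-14643 array lay above every control-diet array, in both genotypes. Of the 9 clock genes measured on all 8 ERT2-Cre arrays, Clock alone had diet groups that did not overlap, against 17.2% of all genes measured on the same 8 arrays. The difference was 0.76 ± 0.13 (SE), a 1.69-fold rise, with an adjusted p of 0.00134. Within the slides it was 0.93 on slide 1, 0.88 on slide 2 and 0.68 on slide 3. In order of the group means, Clock stood at -0.61 in MycF/F on control diet, -0.51 ± 0.23 (SD, n = 4) in ERT2-Cre on control diet, 0.16 ± 0.072 (n = 3) in MycF/F on Wy-14643 and 0.25 ± 0.22 (n = 4) in ERT2-Cre on Wy-14643. Neighbours of the same diet overlapped, and the gap between the diets was wider than the SD of any group.

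Clock was read by 3 probes. A fit over all kept probes called 16.6% of them for the drug in ERT2-Cre livers. The brightest probe, used above, was the only Clock probe called. The second probe gave 0.47 ± 0.17 (SE, adjusted p = 0.0889), with values from -0.81 to -0.048 on control diet and from -0.17 to 0.49 on Wy-14643, so its groups overlapped. The third, well above background on only 6 of 12 arrays, gave 0.12 ± 0.079 (adjusted p = 0.348). All 3 pointed upward, but the size differed by probe. With Cy5 alone in place of the ratio to the reference, the Clock difference was 0.25 (adjusted p = 0.617), the only one of 21 alternative settings in which the call was lost.

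Promoter sequence is shown for the clock genes that were called, to set their start sites beside the E-box, an element that CLOCK:ARNTL can bind. Windows of 250 bases before to 50 after a start site were taken from RefSeq (GRCm38.p6), which gave 14 windows for 9 of the 10 genes. Letters searched on both strands were the E-box CACGTG, the D-box in the forms TTATGTAA and TTACGTAA, the REV-ERB/ROR element TAGGTCA, and a direct repeat of AGGTCA with 1 base between, the kind of element PPARα binds. The REV-ERB/ROR element holds AGGTCA and so can overlap the direct repeat. Among 32851 windows of this length, 7.15% held the E-box, 1.06% a D-box, 2.61% the REV-ERB/ROR element and 0.0396% the direct repeat. None of the 4 was found in the 3 Clock windows, the first of which is on the minus strand at chr5:76304743-76305042, nor in the Dbp window on the plus strand at chr7:45704997-45705296. Both Tef windows, on the plus strand at chr15:81802423-81802722 and chr15:81811164-81811463, held 1 E-box, in capitals, starting at -127 and -138 from the start site. A match is a run of letters, not a shown binding site, and its absence says only that these letters are not in the window.
Clock: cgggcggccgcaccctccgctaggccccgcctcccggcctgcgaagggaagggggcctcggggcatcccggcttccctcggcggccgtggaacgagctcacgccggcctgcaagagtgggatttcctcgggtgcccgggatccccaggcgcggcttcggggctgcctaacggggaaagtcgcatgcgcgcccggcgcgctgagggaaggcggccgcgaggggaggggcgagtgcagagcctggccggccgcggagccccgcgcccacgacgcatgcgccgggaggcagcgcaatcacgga
Dbp: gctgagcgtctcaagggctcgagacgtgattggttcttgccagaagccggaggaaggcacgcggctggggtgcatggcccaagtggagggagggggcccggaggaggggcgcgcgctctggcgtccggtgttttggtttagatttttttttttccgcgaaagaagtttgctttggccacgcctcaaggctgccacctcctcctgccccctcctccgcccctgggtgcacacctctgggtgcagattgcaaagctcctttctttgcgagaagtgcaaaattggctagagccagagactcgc
Tef, first window: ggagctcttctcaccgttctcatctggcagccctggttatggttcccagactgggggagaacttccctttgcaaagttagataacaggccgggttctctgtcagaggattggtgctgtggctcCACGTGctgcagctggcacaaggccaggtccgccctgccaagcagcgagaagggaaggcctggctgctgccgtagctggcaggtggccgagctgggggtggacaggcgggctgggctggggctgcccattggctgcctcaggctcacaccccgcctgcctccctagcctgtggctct
Tef, second window: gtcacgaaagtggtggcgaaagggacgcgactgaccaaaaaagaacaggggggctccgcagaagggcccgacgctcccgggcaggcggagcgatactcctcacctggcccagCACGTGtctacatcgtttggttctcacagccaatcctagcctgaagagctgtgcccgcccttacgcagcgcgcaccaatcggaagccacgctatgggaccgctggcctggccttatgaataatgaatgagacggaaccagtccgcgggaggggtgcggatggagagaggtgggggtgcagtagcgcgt

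Dbp, the D-box binding factor that is among the most strongly rhythmic RNAs of liver, had the largest difference of the 10. On control diet its log2 ratios were 0.71, 0.47, 0.64 and -0.21 on the ERT2-Cre arrays and 0.58 on the MycF/F array. On Wy-14643 they were -1.55, -0.24, -0.072 and -0.42 in ERT2-Cre livers and -0.17, -0.80 and -0.69 in MycF/F livers. The groups of ERT2-Cre overlapped, since replicate 4 on control diet lay below replicate 3 on Wy-14643. The difference was -0.97 ± 0.30 (SE), a 1.96-fold fall, with an adjusted p of 0.0447. It was uneven over the slides, at -2.14 on slide 1, -0.88 on slide 2 and -0.036 on slide 3. Replicate 1 on Wy-14643, at -1.55, lay on slide 1. Without that array the difference was -0.65 (adjusted p = 0.0696), and without the 4 arrays of slide 1 it was -0.46 (adjusted p = 0.181). The call was kept in 5 of 21 alternative settings, with a negative sign in all 21. With slide as a block it was lost, at -0.98 (adjusted p = 0.0545). It was also lost on leaving out control-diet replicate 1 (-0.87), 2 (-0.95) or 3 (-0.90), Wy-14643 replicate 2 (-1.09) or 4 (-1.02), or, through the shared estimate of spread, MycF/F Wy-14643 replicate 2 or 3 (-0.97), with adjusted p from 0.0547 to 0.106.

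Tef encodes a close relative of DBP that binds the same D-box. Its log2 ratios on control diet were 0.23, 0.007, 0.43 and 0.53 in ERT2-Cre livers and 0.19 in the MycF/F sample. On Wy-14643 they were -0.56, -0.19, 0.15 and -0.21 in ERT2-Cre livers and -0.67, -0.30 and -0.26 in MycF/F livers. All control arrays were above 0 and all Wy-14643 arrays but 1 below it, and the ERT2-Cre groups overlapped through that array, replicate 3. Tef fell by 0.50 ± 0.16 (SE) on the log2 scale, 1.41-fold, with an adjusted p of 0.0469. Within slides it was -0.67, -0.62 and -0.56 on slides 1, 2 and 3. The other Tef probes gave -0.15 ± 0.13 and -0.17 ± 0.12 (adjusted p = 0.491 and 0.389), so the call rests on the brightest probe. It was kept in 7 of 21 alternative settings. Leaving out replicate 1 of ERT2-Cre on Wy-14643 gave -0.38 (adjusted p = 0.113), and the mean of the 3 probes gave -0.27 (adjusted p = 0.0786). The call was further lost without control-diet replicate 1 (-0.52), 3 (-0.46) or 4 (-0.42), Wy-14643 replicate 2 or 4 (-0.50 each), or MycF/F Wy-14643 replicate 2 or 3 (-0.50), with adjusted p from 0.0581 to 0.124.

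**Figure D2:**
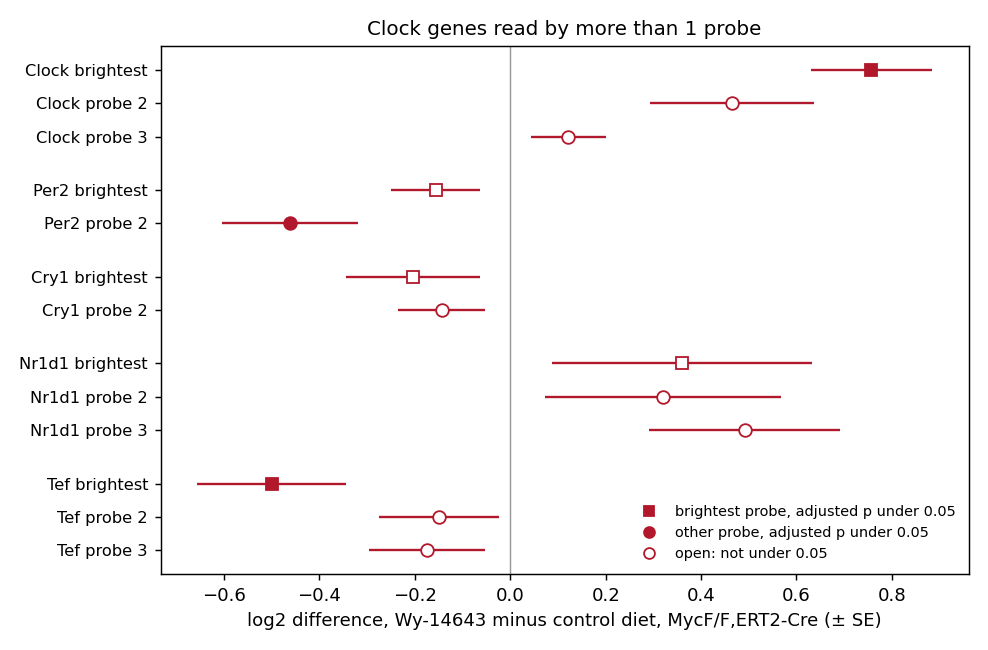
The plot shows the log2 difference between Wy-14643 and control diet in ERT2-Cre livers, with its SE, for each probe of the 5 clock genes read by more than 1 probe. The brightest Clock probe stands at 0.76 above 0.47 and 0.12, the brightest Tef probe at -0.50 below -0.15 and -0.17, and the second Per2 probe at -0.46 beside -0.16.

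The repressor arm did not pass the test by brightest probes. Per1 and Per2 encode the period proteins and Cry1 a cryptochrome, which together inhibit CLOCK:ARNTL. Per1 ranged from -0.0044 to 0.20 on 3 control-diet arrays and from -0.44 to 0.030 on Wy-14643 in ERT2-Cre livers, its spot on replicate 1 of the control diet being an outlier that was left out. The difference was -0.27 ± 0.13 (SE, adjusted p = 0.212).

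Per2 ranged from -0.039 to 0.14 on control diet and from -0.20 to 0.15 on Wy-14643, a difference of -0.16 ± 0.093 (adjusted p = 0.304). Its second probe, at 0.27, -0.022, -0.27 and 0.37 on control diet and -0.30, -0.54, -0.087 and -0.57 on Wy-14643, was called at -0.46 ± 0.14 (adjusted p = 0.0433), with overlapping groups. The 2 Per2 probes thus point the same way and fall on opposite sides of the threshold.

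Cry1 was between 0.0053 and 0.30 on control diet. On Wy-14643 replicate 1 stood at 0.39 and the other 3 arrays between -0.34 and -0.11. With all 8 arrays the difference was -0.20 ± 0.14 (adjusted p = 0.389), and without replicate 1 it was -0.36 (adjusted p = 0.0256), so that a single array, on slide 1, set the side of the threshold. Within slides it was 0.30, -0.27 and -0.53 on slides 1, 2 and 3. The second Cry1 probe gave -0.14 ± 0.092 (adjusted p = 0.341).

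Of these repressors, Per1 and Cry1 had promoter windows, and a window of Per2 was not analysed here. An E-box, held by 7.15% of all windows, was found in 1 of the 2 Per1 windows and in the Cry1 window, and is shown in capitals for comparison with those of Tef, which fell. In Per1 it starts at -166 from the first of 2 start sites, on the plus strand at chr11:69098699-69098998, and in Cry1 at -60 on the minus strand at chr10:85185005-85185304.
Per1: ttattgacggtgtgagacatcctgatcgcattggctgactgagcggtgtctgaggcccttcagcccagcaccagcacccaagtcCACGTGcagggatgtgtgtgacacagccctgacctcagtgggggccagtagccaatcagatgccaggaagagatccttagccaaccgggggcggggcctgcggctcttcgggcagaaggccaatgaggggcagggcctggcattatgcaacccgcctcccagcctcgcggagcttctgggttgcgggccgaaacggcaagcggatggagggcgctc
Cry1: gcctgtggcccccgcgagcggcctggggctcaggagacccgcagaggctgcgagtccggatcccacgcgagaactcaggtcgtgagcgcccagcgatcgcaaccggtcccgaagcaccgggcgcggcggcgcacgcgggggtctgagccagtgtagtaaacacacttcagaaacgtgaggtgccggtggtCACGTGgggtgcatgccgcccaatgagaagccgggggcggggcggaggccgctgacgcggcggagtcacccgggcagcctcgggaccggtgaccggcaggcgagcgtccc

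Arntl, the shared partner of CLOCK and NPAS2, had means close to each other on the diets, and its values lay wider apart on Wy-14643, a difference of spread that was not tested. On control diet the 4 ERT2-Cre arrays were at -0.15, -0.01, -0.11 and -0.096, and on Wy-14643 at 0.20, -0.48, -0.41 and 0.29. The means were -0.092 ± 0.059 (SD, n = 4) and -0.10 ± 0.40 (n = 4), since 2 Wy-14643 arrays lay above all controls and 2 below. The difference was -0.0084 ± 0.16 (SE, adjusted p = 0.984), with a 95% interval from -0.35 to 0.33, so a change smaller than that is not resolved. Arntl in MycF/F livers was -0.25 on control diet and -0.21, -0.42 and -0.37 on Wy-14643. An Arntl window, the second of 2, held the REV-ERB/ROR element, starting at +30 from the start site.

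Npas2, which can stand in for CLOCK, ranged from -0.83 to 0.0041 on control diet and from -0.15 to 0.26 on Wy-14643 in ERT2-Cre livers, a difference of 0.29 ± 0.20 (SE, adjusted p = 0.373). It was above 0 on each slide, at 0.29, 0.10 and 0.31. Without the transgene the difference over all arrays had the opposite sign, -0.40 ± 0.32, and was not called. Within slide 2, the one slide that holds the MycF/F control array, that difference was 0.047. The genotypes' responses were not called different (interaction 0.69 ± 0.38, adjusted p = 1).

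The REV-ERB genes, the second loop of the clock, differed from each other in sign. Nr1d1 was the most variable clock gene on control diet, at -0.78, -0.29, 0.28 and -1.34 on the 4 ERT2-Cre arrays, against -0.22, 0.11, -0.24 and -0.35 on Wy-14643. The difference of 0.36 ± 0.27 (SE) had an adjusted p of 0.439, and the wide control group held all Wy-14643 values within it. The other Nr1d1 probes gave 0.32 ± 0.25 and 0.49 ± 0.20 (adjusted p = 0.444 and 0.123). On slides 1, 2 and 3 the brightest probe gave 0.32, -0.17 and 1.05.

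Nr1d2 was -0.26, 0.18, 0.40 and -0.0063 on control diet and -0.54, -0.12, -0.099 and -0.27 on Wy-14643 in ERT2-Cre livers. The difference was -0.33 ± 0.14 (SE), with an adjusted p of 0.128. It was below 0 on each slide, at -0.50, -0.51 and -0.18. Replicate 1 on control diet, the lowest control, lay among the treated values, and without it the difference was -0.45 (adjusted p = 0.0302). Over the 10 clock genes, 2 differences were above 0 on all 3 slides (Clock and Npas2), 3 were below 0 on all 3 (Nr1d2, Dbp and Tef), and 5 changed sign between slides. The same count was not made over all genes, so it does not show that the clock genes were more even than others.

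**Figure D3:**
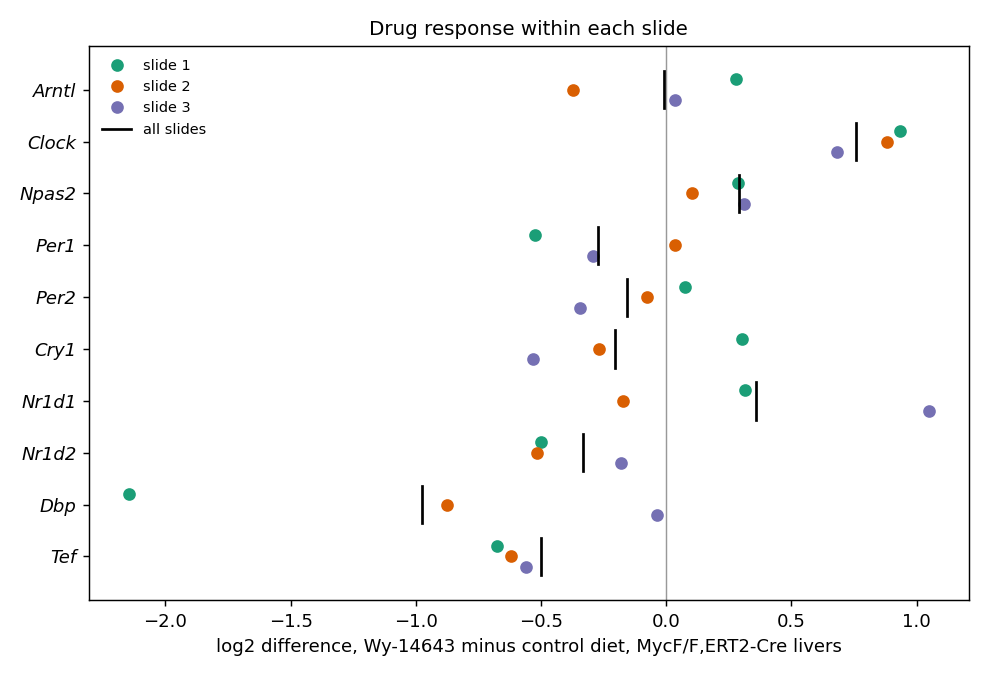
The plot gives the log2 difference between Wy-14643 and control diet in ERT2-Cre livers within each slide, as points, and over all arrays, as bars. Clock lies between 0.68 and 0.93 and Tef between -0.67 and -0.56 on the 3 slides, while Dbp spreads from -2.14 to -0.036.

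In MycF/F livers the drug comparison set 3 arrays against 1, so it assumes that the lone control array varies like those of the other groups. Clock, the single clock gene called, was 0.76 ± 0.21 (SE) higher on Wy-14643, 1.70-fold, with an adjusted p of 0.0474. Over all genes 6.5% were called, 3.32% higher and 3.18% lower. The median log2 difference was -0.26 over the clock genes and -0.00287 over all genes. The Clock call was kept in 6 of 21 alternative settings, and it was lost without MycF/F Wy-14643 replicate 1 (0.81), 2 (0.74) or 3 (0.75). It was lost as well, at 0.76, without ERT2-Cre control replicate 1 or 4 or Wy-14643 replicate 2, 3 or 4, and over these 8 fits the adjusted p ran from 0.0545 to 0.111. Hepatocyte markers fell in this comparison too (3 of 4), and Kupffer cell markers for 2 of 6 genes.

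Of the 10 clock genes 5 (Dbp, Tef, Nr1d2, Per1 and Cry1) were lower on all 3 Wy-14643 arrays than on the MycF/F control array, and none of these was called. Clock alone was higher on all 3. With a single control array 30.8% of all genes were lower on all 3 and 29.5% higher, 60.3% together. Dbp differed by -1.13 ± 0.49 (SE, adjusted p = 0.249), Tef by -0.60 ± 0.25 (adjusted p = 0.234) and Nr1d2 by -0.48 ± 0.22 (adjusted p = 0.296). Without the arrays of slide 1, Dbp was -1.32 (adjusted p = 0.0137). Per1 differed by -0.31 (adjusted p = 0.531) and Cry1 by -0.21 (adjusted p = 0.774). These and the other 4 clock genes lay between -0.40 for Npas2 and 0.0064 for Nr1d1, with adjusted p of 0.531 or more. Within slide 2, the one slide that holds the MycF/F control array, Clock differed by 0.81 and Dbp by -1.38.

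**Figure D4:**
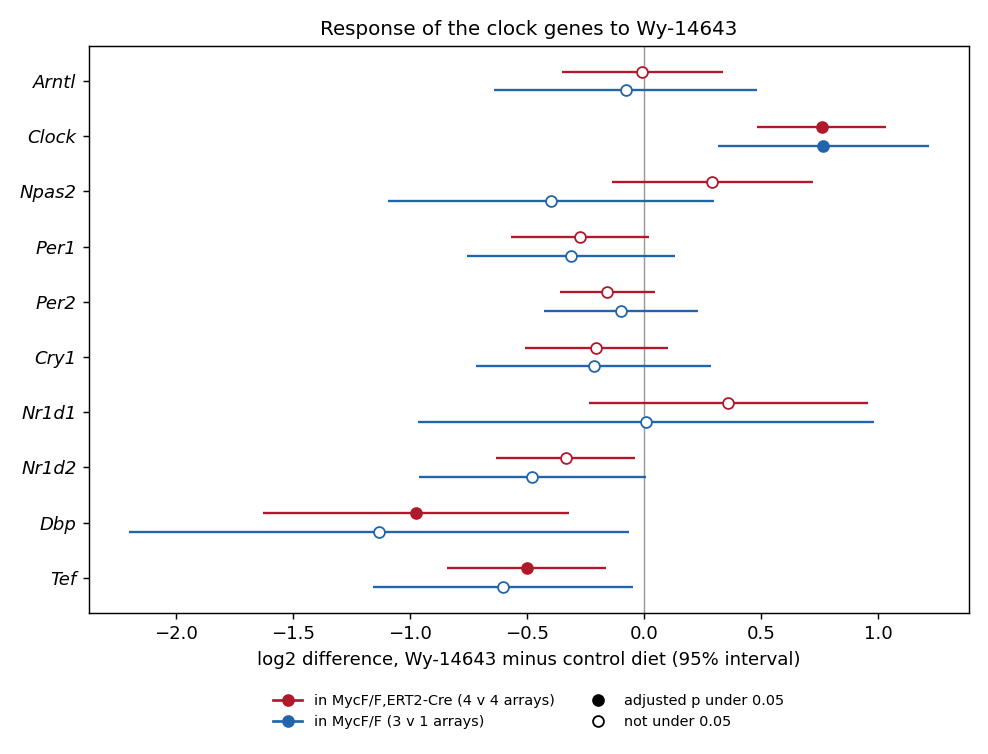
The plot gives the log2 difference between Wy-14643 and control diet for each clock gene in both genotypes, with 95% intervals; filled points have an adjusted p under 0.05. Per1 has 3 control arrays in ERT2-Cre. Clock is filled in both genotypes, at 0.76 in each, and Dbp and Tef in ERT2-Cre alone, with intervals that overlap between genotypes.

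The floxed Myc alleles with and without the transgene were compared by setting ERT2-Cre against MycF/F livers under either diet. These comparisons share arrays with the drug comparisons. On Wy-14643 (4 arrays against 3) none of the 10 was called by limma, and 0.0676% of all genes were. Of 25164 genes tested 2116 had an unadjusted p under 0.05, and of the 10 clock genes Per1 alone. It was at -0.32, 0.03, 0.0027 and -0.44 in ERT2-Cre and at -0.58, -0.27 and -0.60 in MycF/F livers, overlapping groups with a difference of 0.30 ± 0.13 (SE, adjusted p = 0.579). Within slides the Per1 difference was 0.26, 0.30 and 0.39.

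The other differences on Wy-14643 ran from -0.019 for Dbp to 0.39 ± 0.21 for Npas2 (adjusted p = 0.723). Of the 10, 9 were above 0, with a median of 0.20 beside 0.0218 over all genes. Per2 (0.16 to 0.33) and Tef (0.11 to 0.23) were also above 0 on each slide. The other 7 changed sign between slides, with Dbp from -1.38 to 0.56. Neither the share above 0 nor the slide count was taken over all genes. Clock differed by 0.094, with a 95% interval from -0.20 to 0.39.

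On control diet (4 arrays against 1) 0 of the 10 and 0% of all genes were called by limma. At an unadjusted p under 0.05 there were 443 genes and no clock gene. The differences ran from -0.30 for Npas2 to 0.26 for Per1. For Dbp the interval reached from -1.21 to 0.86, so a 2-fold fall lies within it.

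The drug effects of the genotypes were compared by the interaction, the response in ERT2-Cre minus that in MycF/F livers. None of the 10 clock genes was called, nor was any gene (0%) by limma. At an unadjusted p under 0.05 there were 538 genes and no clock gene. Npas2 had the largest value, 0.69 ± 0.38 (SE, not called), from drug differences of 0.29 and -0.40. Within slide 2 alone its drug differences were 0.10 in ERT2-Cre and 0.047 in MycF/F livers. Clock had -0.0068, with an interval from -0.53 to 0.52, and Dbp 0.16, with an interval from -1.10 to 1.41. With 1 MycF/F control array these intervals are wide, and a missed threshold does not show that the genotypes respond alike.

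**Figure D5:**
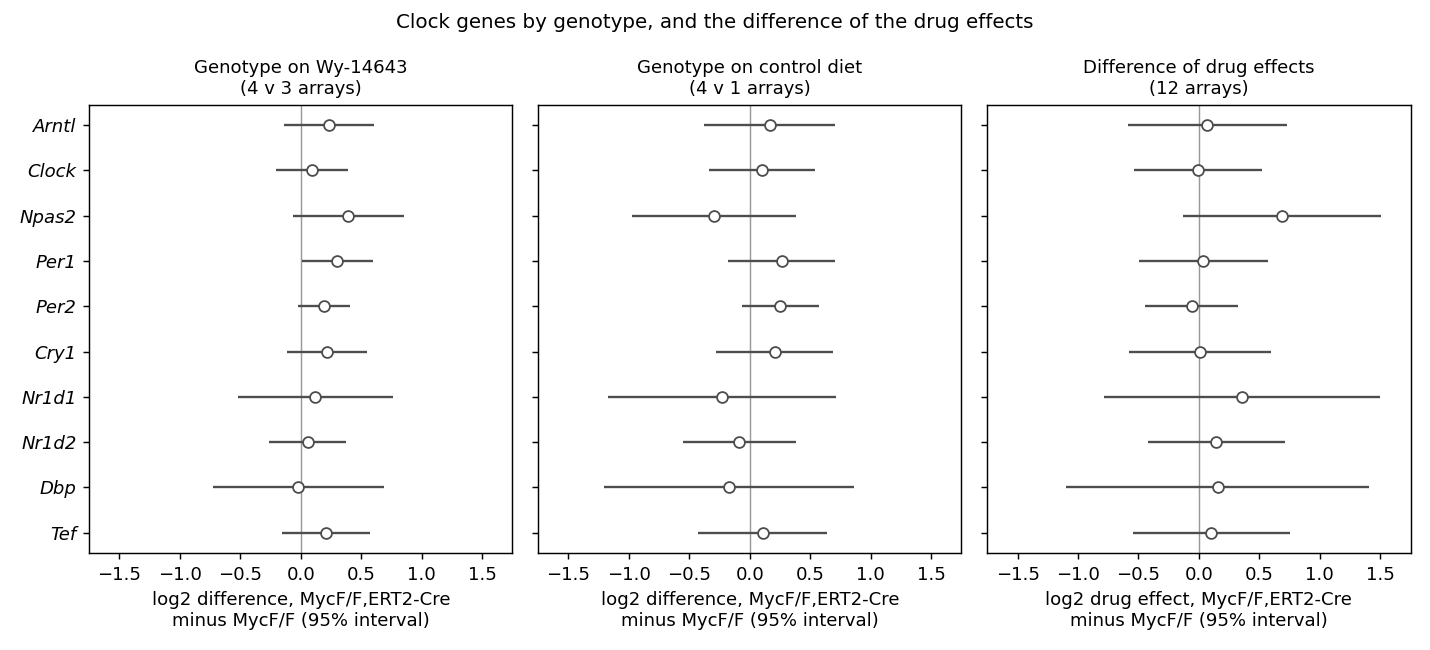
The 3 panels give, for each clock gene, the log2 difference between ERT2-Cre and MycF/F livers under each diet, and how far the drug effects differ, with 95% intervals. All points are open, since none has an adjusted p under 0.05, and the interval of Per1 on Wy-14643 is the one that leaves out 0.

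A list of 18 further clock components (Per3, Cry2, the ROR activators, HLF and NFIL3, the BHLHE repressors, kinases and ubiquitin ligases of the loop) gave 1 call of 18 in ERT2-Cre livers, where 16.2% of all genes were called, and 1 of 17 in MycF/F livers, where 6.5% were. Both were Nfil3, and neither share was above that of all genes. The list's median difference was 0.062 and 0.011. The first count was 2 without ERT2-Cre control replicate 1, 2 or 4 or MycF/F Wy-14643 replicate 1, and the second was 2 without ERT2-Cre control replicate 3. Nfil3 encodes the repressor that competes with DBP and TEF for the D-box. It was at 0.83, 0.70, 0.67 and 0.75 on control diet and 0.41, 0.23 and 0.27 on the 3 measured Wy-14643 arrays of ERT2-Cre. The MycF/F arrays gave 0.81 on control diet and 0.18, 0.23 and 0.11 on Wy-14643, so that no treated array reached a control array. Diet groups did not overlap for 17.2% of all genes measured on 4 and 4 ERT2-Cre arrays. In MycF/F livers, with 3 arrays against 1, that share was 60.3%. The fall was -0.43 ± 0.081 (SE, adjusted p = 0.00355) and -0.63 ± 0.12 (adjusted p = 0.00924). Bhlhe40, which represses CLOCK:ARNTL targets, did not pass the test in ERT2-Cre livers, at -0.50 ± 0.16 (adjusted p = 0.0591), with groups that did not overlap, as for 17.2% of all genes. Its paralogue Bhlhe41 had the opposite sign there, 0.38 ± 0.15 (adjusted p = 0.12), also without overlap on 3 control arrays. In MycF/F livers they were at -0.79 and -0.58 against 1 control array, Bhlhe41 on 2 treated arrays, and neither was called. The interaction of Bhlhe41 was 0.97, also not called. Hlf, a PAR bZIP gene like Dbp and Tef, was at 0.32 ± 0.15 in ERT2-Cre livers (adjusted p = 0.188), on 3 arrays of each diet. In MycF/F livers Hlf was at 0.047.

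A list of 16 genes known as rhythmic clock outputs of liver had 15 measured members. In ERT2-Cre livers 5 of the 15 were called, 1 higher and 4 lower, with a list median of -0.40. Of all genes 8.88% were called higher and 7.33% lower in that comparison. Among the fallen genes were Cyp2a5, a coumarin hydroxylase, at -1.60 ± 0.24 (adjusted p = 0.00283) and Usp2, a deubiquitinase, at -0.78 ± 0.17 (adjusted p = 0.0116). Another was Tspan4, a tetraspanin, at -0.59 ± 0.11 (adjusted p = 0.00272). Usp2 rested on 2 control arrays and Cyp2a5 on 3 arrays of each diet, because outlier spots were left out. Klf10, a Krüppel-like repressor under clock control, rose by 1.12 ± 0.30 (adjusted p = 0.0216), from values between -1.81 and -0.032 on control diet to values between -0.20 and 0.53. The count of outputs was 3 without control-diet replicate 4 or without Wy-14643 replicate 1 or 2.

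In MycF/F livers 2 of 15 outputs were called, both lower, where 3.18% of all genes were called lower. They were Cyp7a1, the rate-limiting enzyme of bile acid synthesis, at -0.84 ± 0.14 (adjusted p = 0.0228) and Tspan4 at -0.88 ± 0.18 (adjusted p = 0.0138), each from 2 treated arrays and 1 control. The list median there was 0.02. The count was 0 without MycF/F Wy-14643 replicate 1 and 1 without MycF/F or ERT2-Cre Wy-14643 replicate 3. Tspan4 was the output called in both genotypes. No gene of either list was called by genotype or interaction.

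The genes whose log2 ratios ran most like those of Arntl over the 12 arrays, among 11623 genes with no missing value, were Cers4 (Pearson r 0.82), Prss2 (0.80), Kif3a (0.79), Pde1c (0.79) and Eml1 (0.78). Those most like Dbp were Guca1a (0.94), Tmc6 (0.93), Smtn (0.92), Nsl1 (0.92) and Dct (0.91). These r values describe arrays that share slides, reference and diet groups.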

How the data were processed

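Whole-liver RNA of 4 groups was read on 12 two-colour Agilent arrays with Feature Extraction 11.0.1.1, per the submitters' processing notes. The deposited intensity values are median Cy5 and Cy3 signals and local backgrounds in scanner units, per the file headers. The deposited log10 ratio of Cy5 to Cy3 is the software's corrected value, per the file headers, and served only as an alternative. The files pair probes with accessions and not with symbols, so symbols came from a RefSeq gene list of build GRCm38.p6, which held 16792 of 17440 mRNA accessions; the planned gene name column was not in the values. Signals were corrected with normexp (offset 50) and log2 ratios loess-normalized within arrays, in R 4.3.3 with limma 3.58.1 and data.table version 1.17.8. Spots marked as outliers were left out, spots of a probe were averaged, and 31861 of 41174 probes with Cy5 well above background on at least 3 arrays were kept, for probes with several spots in a share of 0.5 of them. The brightest kept probe stood for a gene, and all 18 probes of the clock genes were kept. With lmFit and eBayes, a model of 4 group means used the 12 arrays together, leaving 8 residual degrees of freedom. Tests were two-sided with Benjamini-Hochberg adjustment across the genes of a comparison, and calls are at an adjusted p under 0.05. The fit was tested on simulated data with independent noise on each array. Those data held no slide effect, so that test does not cover arrays that share a slide. Named were all 10 clock genes with every kept probe, the called members of the lists of further clock genes and of outputs, the 5 genes most like Arntl and like Dbp, and the check genes. Bhlhe40, Bhlhe41 and Hlf were named after their values were seen. A called output and a check gene are not reported here. Genes and lists were chosen with earlier results of these data known. The precision is limited by the number of arrays. Replicate numbers were not taken to pair the samples in the main fit. Of 10 pairs of arrays with the same number in different groups, 7 had deviations from the group means that correlated above 0.1. Their r ran from -0.071 to 0.414 over the 10 pairs. Most of the 7 pairs shared a slide, so number and slide cannot be told apart, and whether the numbers mark a pairing is not settled.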

Additional observations from a re-analysis of the deposited data

How the results depend on the processing

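The clock genes called for Wy-14643 in MycF/F,ERT2-Cre livers numbered 3, and 1 with the deposited log ratios, with scaling between arrays, without a filter on dim probes or with outlier spots kept, 0 with Cy5 alone, and 1 to 3 when each replicate was left out in turn. In MycF/F livers the count was 1, and 0 with the deposited log ratios, Cy5 alone, scaling, no filter on dim probes, the mean of a gene's probes or slide as a block, 2 without the arrays of slide 1, and 0 to 1 on leaving out replicates. The genotype and interaction counts were 0 under all 21 alternatives run. With the replicate number as a block (replicate block) 2 clock genes were called in MycF/F,ERT2-Cre, Dbp being lost at -0.97 (adjusted p = 0.0576), and 1 in MycF/F livers, there Tef at -0.80 (adjusted p = 0.0471) in place of Clock at 0.85 (adjusted p = 0.0529); 4 of 11 arrays correlated best with their own number. No single clock gene's call reversed. Over all genes, the drug calls in MycF/F,ERT2-Cre were 4079, and 1285 with Cy5 alone. In MycF/F livers they were 1620, and 1044, 256, 318 and 2810 with the deposited log ratios, Cy5 alone, scaling and without slide 1. For genotype on Wy-14643 they were 17, and 0 with the deposited log ratios, Cy5 alone, scaling or the replicate block, and 39, 27, 31 and 107 with outliers kept, the mean of probes, the slide block and without slide 1. On control diet they were 0, and 4 with Cy5 alone and 2 without slide 1. The cause was not tested. Further clock genes called in MycF/F,ERT2-Cre ranged from 0 to 2 and outputs from 1 to 6; in MycF/F livers they ranged from 0 to 3 and from 0 to 2. The brightest probe of each clock gene was well above background on all 12 arrays, the third Clock probe on 6.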
